A study of Mus musculus with 10 samples.

Results

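The genes described here encode the AMPA receptor: its pore subunits Gria1, Gria2, Gria3 and Gria4, the auxiliary subunits Cacng2, Cacng3 and Cacng8 of the TARP family (transmembrane AMPA receptor regulatory proteins), and the cornichon protein Cnih2. They were found through the gene identifier that the deposited table gives for each probe set, a group of short probes on the array that together read 1 transcript. These 8 genes, of 17876 with a probe set of their own, were read by 22 of the 45037 probe sets. Gria4 had 7 probe sets, Gria2 had 4, Gria1 and Cacng2 had 3 each, Gria3 had 2, and Cacng3, Cacng8 and Cnih2 had 1 each. The groups were 5 male B6xC3 F1 hybrid mice of 30 months and 5 male B6xC3 F1 hybrid mice of 5 months, all housed singly and fed the AIN-93M control diet. A separate Affymetrix array was run for every mouse on RNA of the neocortex, and the comparison asks which transcripts differ between old and young adult cortex. The deposited array names of all 30-month mice begin with SK, and those of the 5-month mice do not. The names do not say what this prefix marks, and whatever it marks cannot be told apart from age.

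AMPA receptors are glutamate-gated cation channels that carry most of the fast excitatory current at cortical synapses. Each receptor combines several pore subunits, and a receptor that contains the edited product of Gria2 lets almost no calcium through. TARPs and cornichons travel with the pore, slow its closing and help to bring it to the synapse, and the number of receptors held there changes during long-term potentiation and depression.

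Gria2 and Gria4 had the probe sets that differed most clearly in opposite directions, so the 250 bases before their annotated starts are shown. Cnih2 is added because its window held matches to a searched motif. The windows are from RefSeq on GRCm38.p6, where 6 of the 8 genes had one, and all 3 lie on the minus strand: chr3:80802836-80803085 for Gria2, chr9:4796235-4796484 for Gria4 and chr19:5098522-5098771 for Cnih2. Each is printed 5′ to 3′ in the direction of transcription, with capitals for GC boxes.
Gria2: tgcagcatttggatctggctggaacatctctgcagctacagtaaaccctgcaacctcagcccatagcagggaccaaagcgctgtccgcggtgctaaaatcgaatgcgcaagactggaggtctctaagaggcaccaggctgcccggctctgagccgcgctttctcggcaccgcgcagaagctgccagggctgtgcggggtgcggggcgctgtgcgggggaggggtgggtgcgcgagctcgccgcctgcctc
Gria4: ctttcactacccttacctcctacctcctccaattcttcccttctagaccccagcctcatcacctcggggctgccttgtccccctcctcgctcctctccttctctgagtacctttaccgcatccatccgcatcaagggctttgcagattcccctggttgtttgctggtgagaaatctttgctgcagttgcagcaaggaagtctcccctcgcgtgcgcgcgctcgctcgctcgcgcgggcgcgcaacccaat
Cnih2: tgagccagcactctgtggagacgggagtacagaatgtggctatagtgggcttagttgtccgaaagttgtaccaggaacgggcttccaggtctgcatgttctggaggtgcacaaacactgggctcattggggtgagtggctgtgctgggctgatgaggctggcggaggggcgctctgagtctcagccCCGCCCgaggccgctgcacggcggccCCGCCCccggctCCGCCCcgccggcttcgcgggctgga
The motifs searched on both strands were the GC box GGGCGG and the cyclic AMP response element TGACGTCA, whose matches do not overlap in these windows. The GC box was present in 32.7% and the response element in 1.55% of all 32851 such windows. Cnih2 had 3 GC boxes, which read CCGCCC on the printed strand, and neither motif was found in the windows of Gria2, Gria4, Cacng2, Cacng3 or Cacng8. G and C made up 64.8% of the Gria2, 58.8% of the Gria4 and 65.6% of the Cnih2 window. These matches describe the sequence, and the arrays do not measure binding to it.

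Signals are on the linear scale of the deposited table, and array medians lay between 114.5 and 122.6. Testing was limited to probe sets with an average log2 signal above 6.89, the median probe set, which is a signal of 118.5. Of the 22 AMPA receptor probe sets 17 passed and 5 did not. Within their age, the arrays farthest from the mean were those of 30-month mice 4 and 2, with root mean square deviations of 0.184 and 0.178 on the log2 scale, against 0.124 to 0.173 in the other arrays. All 10 markers of glutamatergic neurons passed the filter and so did 6 of 6 striatal markers. The summed signal of the striatal markers was 9349 to 11081 at 30 months and 10293 to 11364 at 5 months (1 lower, 5 not called). Ttr, a gene of the choroid plexus, varied among old mice, at 2898 to 10851 at 30 months and 7969 to 10541 at 5 months, and the change of its probe set of highest mean did not pass the test, while 1 of its 4 tested probe sets was called lower. Clic6, the other choroid plexus gene tested, was lower at 30 months (−0.29, limma adjusted p = 0.0111). The part of adjoining tissue in the results was not tested.

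The AMPA receptor transcripts changed little and in both directions. In the fit of all 22518 tested probe sets (limma, adjusted p under 0.05 by Benjamini-Hochberg over all of them), 3 of the 17 probe sets were higher at 30 months, 2 were lower and 12 did not pass. Over all tested probe sets 29.1% were higher and 11.8% lower, and 41% were called in either direction. The median log2 change (30 months minus 5 months) was 0.02 over the 17 probe sets, beside 0.07 over all tested. The probe sets that rose read Gria1, Gria4 and Cacng3, and those that fell read Gria2 and Cacng2. In RNA of whole tissue, fewer cells of a type and less RNA per cell cannot be told apart. With 30-month mice 2 and 4 left out, 3 were higher and 3 lower, beside 6412 higher and 2806 lower over all 22518 tested probe sets. After every array was rescaled to a common median of its tested probe sets (tested-median scaling), 1 was higher and 7 were lower. Under that scaling 4229 of all 22518 tested probe sets were higher and 4969 lower, so lower calls were more frequent there too.

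**Figure D1:**
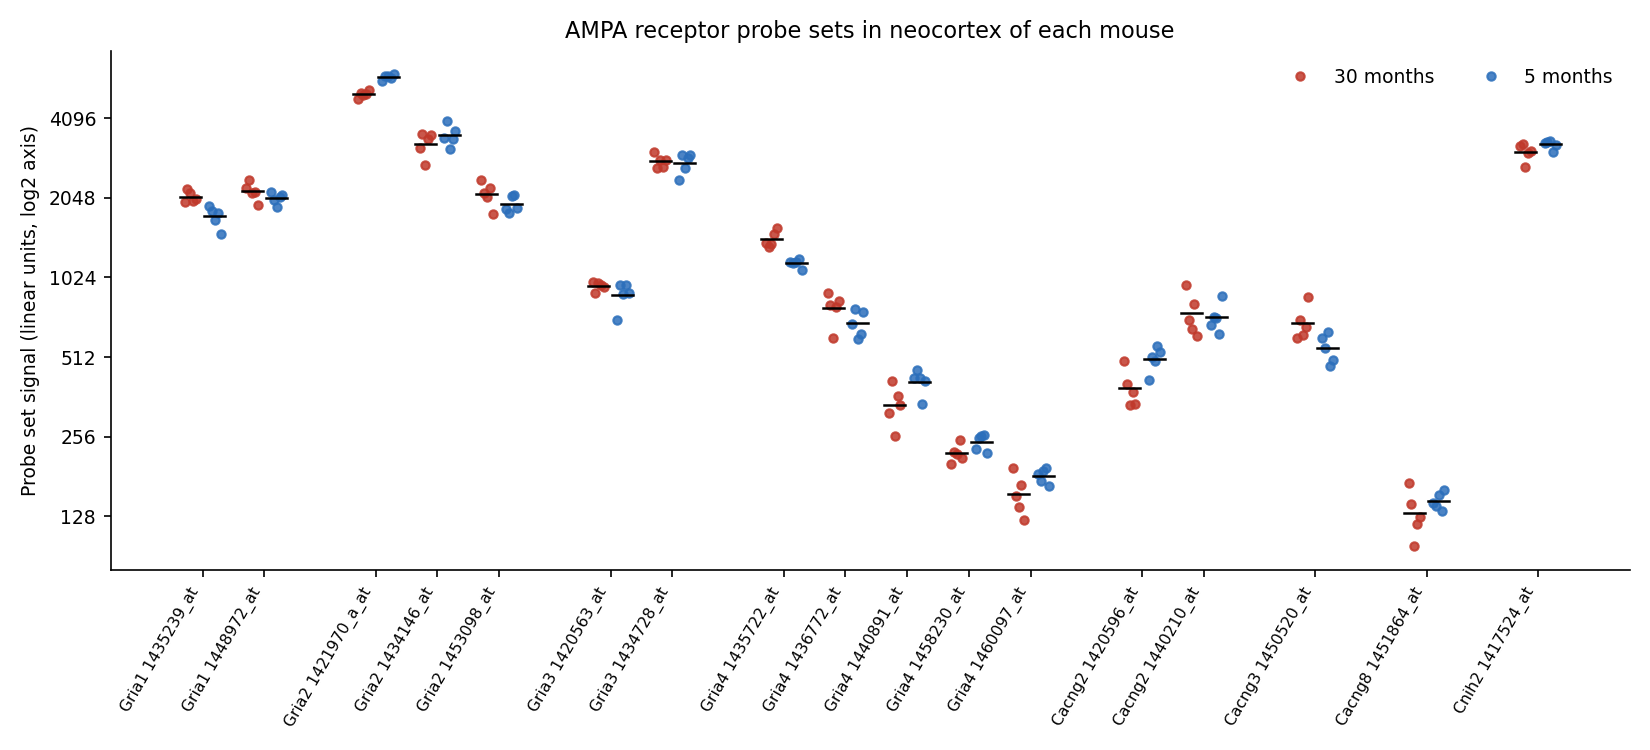
Signal of each tested AMPA receptor probe set in each mouse (points, log2 axis; black bars are group means; 30 months in red, 5 months in blue). The groups separate fully in the first Gria1 probe set, in Gria2 1421970_a_at and in Gria4 1435722_at; heights of different probe sets are not comparable as amounts of RNA.

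**Figure D2:**
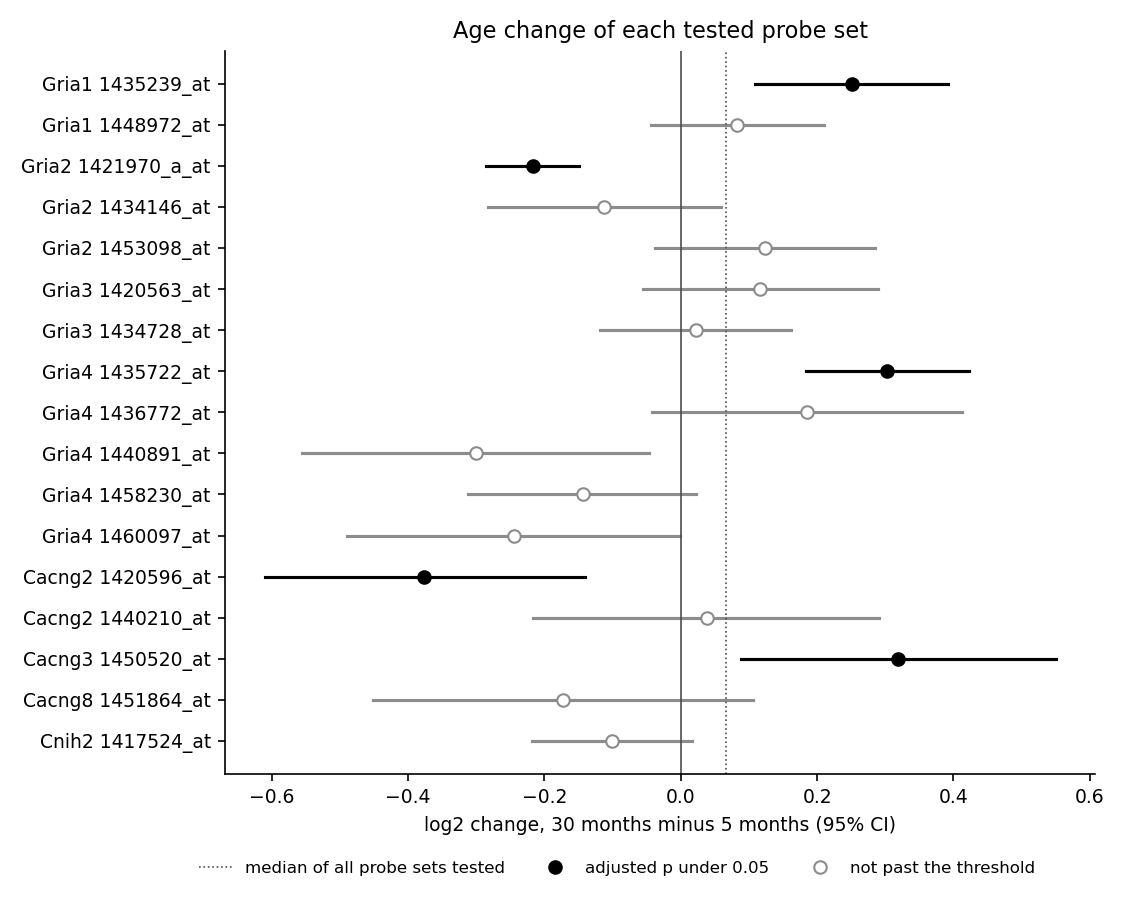
Log2 change at 30 months minus 5 months of the 17 tested probe sets, with 95% confidence intervals; filled points passed an adjusted p of 0.05. Filled points lie on both sides of 0, from −0.38 for Cacng2 to 0.32 for Cacng3.

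Among the pore subunits, 1 of the 3 tested probe sets of Gria2 fell. Probe set 1421970_a_at, designed on a full-length mRNA, read 4852, 5082, 5025, 5038 and 5208 in the mice of 30 months, against 5638, 5930, 5932, 5800 and 5993 in those of 5 months. Every old mouse lay below every young mouse, as in 5.67% of all tested probe sets. Means were 5041 ± 128 in old and 5859 ± 142 in young mice (SD, n = 5 each), a log2 change of −0.22 (SE 0.03, limma adjusted p = 0.000223). The other tested Gria2 probe sets did not pass. Probe set 1434146_at, designed on an expressed sequence tag (a partial cDNA read), read 2718 to 3573 at 30 months and 3140 to 4000 at 5 months. Its log2 change was −0.11 with an interval from −0.28 to 0.06. Probe set 1453098_at, designed on an mRNA clone, read 1784 to 2391 at 30 months and 1800 to 2105 at 5 months. Its log2 change was 0.12, with an interval from −0.04 to 0.28, and without 30-month mouse 6 it was 0.18 and called (limma adjusted p = 0.0394). The groups overlapped in both. Under tested-median scaling 1434146_at was called lower, at −0.21 (limma adjusted p = 0.0442). On the deposited scaling its change was −0.05 without 30-month mouse 4 (limma adjusted p = 0.596). Without 30-month mice 2 and 4 it was −0.01 (limma adjusted p = 0.934).

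The fourth Gria2 probe set, 1445962_at, lay far below the filter and was designed on an expressed sequence tag. It read 12.7, 14.6, 21.2, 25.0 and 11.1 at 30 months, against 53.0, 47.6, 41.3, 45.8 and 45.3 at 5 months. The groups did not overlap, which held in this direction for 3.47% of the probe sets under the filter. In the fit without a filter its log2 change was −1.53 (SE 0.23, limma adjusted p = 9.49e-04), where 7.44% of all probe sets were called lower. In the authors' deposited table it had a signed fold of −2.7 and was the 1 AMPA receptor probe set that met their criteria, which 8.96% of all probe sets met. Its signals are a small fraction of the filter value, and the part of the Gria2 transcript that it reads was not analysed here.

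Gria1 encodes GluA1, the subunit inserted into synapses during potentiation. Its probe set 1435239_at, designed on an expressed sequence tag, read 1970, 2213, 2135, 1983 and 2018 at 30 months and 1913, 1817, 1689, 1787 and 1490 at 5 months. All old mice lay above all young mice, as in 21.2% of tested probe sets. Old mice averaged 2064 ± 106 and young mice 1739 ± 160 (SD, n = 5 each), a log2 change of 0.25 (SE 0.07, limma adjusted p = 0.00866). Under tested-median scaling the change was 0.16 and the call was lost (adjusted p = 0.0518). Probe set 1448972_at, designed on the full-length mRNA, read 1921 to 2399 at 30 months and 1897 to 2152 at 5 months, and these ranges overlapped. Its log2 change was 0.08, with an interval from −0.04 to 0.21, and it was −0.02 after quantile normalization. The third Gria1 probe set, 1458285_at, lay under the filter at 9.65 to 24.1 at 30 months and 19.4 to 28.5 at 5 months, and it was not called in the fit without a filter (limma adjusted p = 0.094).

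Gria3 showed no change past the test. Probe set 1434728_at read 2652, 2679, 2838, 2845 and 3058 in the old mice in ascending order and 2386, 2654, 2896, 2972 and 2980 in the young mice. Its log2 change was 0.02, with an interval from −0.12 to 0.16. Probe set 1420563_at, designed on the full-length mRNA, read 895 to 984 at 30 months and 704 to 959 at 5 months, and its change was 0.12 (interval −0.05 to 0.29). The groups overlapped in both probe sets, and the sign of both was negative after quantile normalization.

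Gria4, whose product is found in fast-spiking interneurons among other cells, had probe sets whose changes differed in sign, of which 1 passed the test. Probe set 1435722_at read 1385, 1337, 1375, 1491 and 1568 at 30 months, against 1173, 1164, 1167, 1200 and 1089 at 5 months. The groups did not overlap, the means were 1431 ± 95.3 at 30 months and 1159 ± 41.6 at 5 months (SD, n = 5 each), and the log2 change was 0.30 (SE 0.06, limma adjusted p = 0.00102). Probe set 1436772_at had a change of 0.19 that did not pass (adjusted p = 0.175), with 603 to 897 at 30 months and 601 to 774 at 5 months. The remaining 3 tested probe sets had negative changes that did not pass either. For 1440891_at the change was −0.30 (limma adjusted p = 0.0567), for 1458230_at −0.14 (0.153) and for 1460097_at −0.24 (0.0998). Tested-median scaling called all 3 lower (limma adjusted p = 0.0145, 0.022 and 0.0238). Leaving out 1 mouse moved some calls: 1436772_at was called without 30-month mouse 4 (0.28, adjusted p = 0.0201), 1440891_at without 30-month mouse 3 (−0.38, 0.0189) or 5-month mouse 4 (−0.37, 0.0257), and 1460097_at without 30-month mouse 2 (−0.33, 0.0212). In 1440891_at the signals were 257 to 416 at 30 months and 341 to 459 at 5 months, so the groups overlapped there. All 5 were designed on expressed sequence tags, but the 3 with negative changes read lower signals than the 2 with positive changes. Probe set 1458230_at read 201 to 249 at 30 months and 222 to 259 at 5 months. Probe set 1460097_at read 123 to 194 at 30 months and 166 to 195 at 5 months. In both the ages overlapped, and both lay closer to the filter than the other tested Gria4 probe sets. Below the filter, 1421351_at, the full-length mRNA probe set of Gria4, read 89.0 to 141 at 30 months and 81.9 to 135 at 5 months, and 1443285_at read 65.0 to 105 at 30 months and 85.8 to 104 at 5 months. Neither of these was called without a filter (limma adjusted p = 0.58 and 0.125).

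Whether probe sets of a gene differed in their age change was also tested. The value tested was the log2 difference, within an array, between each probe set and the one of highest mean signal for its gene. A factor common to a whole array cancels in this difference. Quantile normalization can change it, and the differences were not fitted after that. Of 7876 such differences over all genes 39.7% were called, and of the 9 for AMPA receptor genes 5 were. For Gria4, 1440891_at changed by 0.60 less on the log2 scale than 1435722_at (difference −0.60, SE 0.14, limma adjusted p = 0.00502). The difference was −0.45 for 1458230_at (0.00266) and −0.55 for 1460097_at (0.00778), and 1436772_at did not differ past the test (−0.12, adjusted p = 0.448). Within Gria2, 1453098_at differed from 1421970_a_at by 0.34 (interval 0.12 to 0.56, adjusted p = 0.0178), and 1434146_at did not differ past the test (0.10, interval −0.08 to 0.29). Neither the difference within Gria1 (0.17, interval 0.00 to 0.33, adjusted p = 0.0989) nor that within Gria3 (0.09, interval −0.06 to 0.25, adjusted p = 0.304) passed. Averaging the tested probe sets of a gene gave a Gria4 change of −0.04 (limma adjusted p = 0.616). The sign of its probe set of highest mean did not hold there. For Gria4 this averaging counts the 3 probe sets of lower signal as much as the others. The average was −0.07 for Gria2, where the call was lost (adjusted p = 0.186), and 0.17 for Gria1, where one was gained (limma adjusted p = 0.0241).

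**Figure D3:**
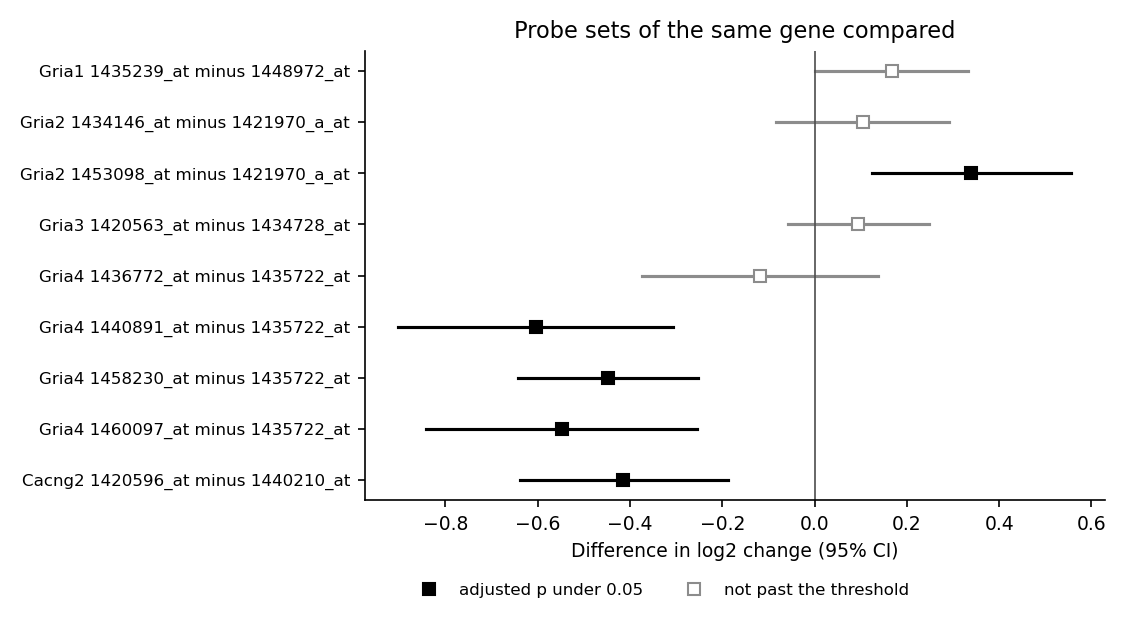
Difference in log2 age change between each tested probe set and the tested probe set of highest mean of its gene, with 95% confidence intervals; filled squares passed an adjusted p of 0.05. The filled squares of Gria4, 3 of its 4, and that of Cacng2 lie below 0, and the filled square of Gria2 lies above.

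Gria2 was also set against its partner subunits within each array. The log2 signal of Gria2 1421970_a_at minus that of Gria1 1448972_at was 1.12, 1.08, 1.24, 1.22 and 1.44 at 30 months, against 1.39, 1.56, 1.65, 1.49 and 1.52 at 5 months. The highest old mouse, mouse 6, lay above the lowest young mouse, mouse 1, and the other old mice lay below all young mice. Old mice averaged 1.22 ± 0.14 and young mice 1.52 ± 0.09 (SD, n = 5 each), a difference of −0.30 (exact permutation test, two-sided, p = 0.0159, the smallest p being 0.00794). For this 1 value the probe set of highest mean of each gene was used. The difference of Gria2 to Gria3 averaged 0.84 at 30 months and 1.08 at 5 months, and that to Gria4 averaged 1.82 at 30 months and 2.34 at 5 months. Both are given as a description without a test. Neither overlapped between the ages, and how often this holds for other pairs of genes was not counted. The Gria4 signal used was that of 1435722_at, which rose, while the average of the tested Gria4 probe sets changed by −0.04. A difference between 2 genes within an array shows unequal change, and not which transcript moved.

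**Figure D4:**
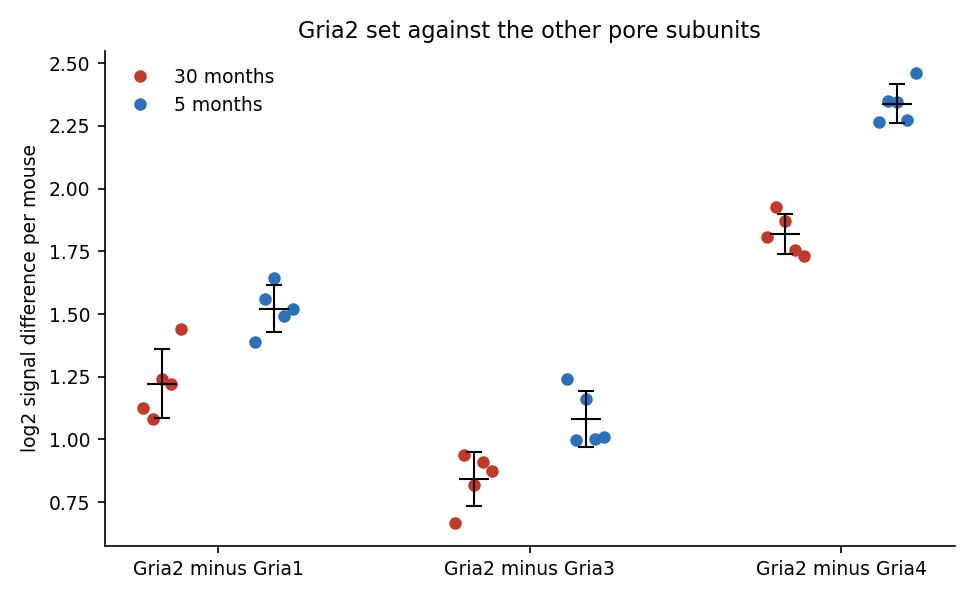
Log2 signal of Gria2 minus that of Gria1, Gria3 or Gria4 in each mouse (30 months in red, 5 months in blue; black marks are mean and SD, n = 5), from the probe set of highest mean of each gene. Old mice lie lower in all 3 comparisons, with 1 overlap in Gria2 minus Gria1.

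Of the TARPs, Cacng2 and Cacng3 each had 1 called probe set, in opposite directions. Cacng2 encodes stargazin, the founding member of the family. Its full-length mRNA probe set 1420596_at read 493, 406, 336, 379 and 341 at 30 months, against 419, 510, 497, 564 and 534 at 5 months. Old mouse 2 and young mouse 1 were the ones that overlapped. Old mice averaged 391 ± 63.9 and young mice 505 ± 54.2 (SD, n = 5 each), a log2 change of −0.38 (SE 0.11, limma adjusted p = 0.0146). The Cacng2 probe set with the higher mean, 1440210_at, read 615 to 955 at 30 months and 628 to 871 at 5 months, with a change of 0.04 (interval −0.22 to 0.29). The 2 differed by −0.41 (SE 0.10, limma adjusted p = 0.00851), with no overlap between the ages. The same lack of overlap was seen in the differences of Gria4 1458230_at and 1460097_at. Its share over all genes was not counted. Probe set 1453363_at read 1, the floor set before log2 was taken, on all arrays except 30-month mouse 3.

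Cacng3, a TARP of cortical neurons, read 603, 705, 618, 665 and 866 at 30 months, against 604, 556, 634, 472 and 498 at 5 months. Old mice were higher on average with some overlap, at 691 ± 106 at 30 months and 553 ± 68.4 at 5 months (SD, n = 5 each). The log2 change was 0.32 (SE 0.11, limma adjusted p = 0.03). The call was lost after quantile normalization (0.21, adjusted p = 0.131), under tested-median scaling (0.23, adjusted p = 0.11) and without a filter (0.32, adjusted p = 0.0572). Leaving out 5-month mouse 4 (adjusted p = 0.0736) or mouse 5 (0.0697), or 30-month mouse 3 (0.0598) or mouse 6 (0.066), also lost it. Cacng8, a TARP abundant in hippocampus and cortex, read 171, 142, 98.5, 120 and 127 at 30 months and 143, 140, 154, 134 and 161 at 5 months. The groups overlapped, and the change was −0.17 (interval −0.45 to 0.11), at signals close to the filter. Cnih2, which slows the closing of the channel, read 3200, 3257, 2665, 3030 and 3083 at 30 months and 3307, 3322, 3370, 3057 and 3252 at 5 months. Its change of −0.10 (interval −0.22 to 0.02, limma adjusted p = 0.154) did not pass, but it did after quantile normalization (−0.14, adjusted p = 0.048) and under tested-median scaling (−0.19, adjusted p = 0.00858).

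Cell type markers were each read by the tested probe set of highest mean, by which 32.8% of all 11963 genes were higher and 11.5% lower. The summed signal of 10 pan-neuronal markers was 45658 to 48429 at 30 months and 45437 to 48465 at 5 months, with 2 of 10 higher and 8 not called. Rbfox3, Snap25, Map2 and Elavl4 of this list, and Aqp4 among the astrocyte markers, each had another probe set called in the opposite direction. Sums of 9 astrocyte markers were 19719 to 20998 at 30 months against 14805 to 16695 at 5 months (6 higher, the other 3 not called), and did not overlap. Likewise 7 microglia markers summed to 8375 to 8714 at 30 months against 6989 to 7621 at 5 months, without overlap (3 higher, 2 lower). For 6 markers of endothelial cells and pericytes the sums were 3758 to 4183 at 30 months and 2440 to 3029 at 5 months (3 higher, 3 not called), again without overlap. For 7 markers of oligodendrocyte precursors, cells that carry AMPA receptors, they were 4615 to 5177 at 30 months and 3904 to 4689 at 5 months (3 higher, 2 lower), with overlap. For 8 markers of oligodendrocytes they were 27141 to 33511 at 30 months and 27172 to 29119 at 5 months (3 higher, 5 not called), also with overlap. Without 30-month mice 2 and 4, 6 of these 8 were higher. Sums of 10 glutamatergic markers were 13137 to 15701 at 30 months and 12047 to 13813 at 5 months (4 higher, 2 lower), and of 10 interneuron markers 22950 to 24917 at 30 months and 23078 to 24207 at 5 months (3 higher, 7 not called). Under tested-median scaling the counts became 1 higher and 4 lower for the pan-neuronal list, 2 higher and 3 lower for the glutamatergic list, and 2 higher and 3 lower for the interneuron list, while 5 of 9 astrocyte markers were higher. The part of these markers in the changes of the AMPA receptor genes was not tested.

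Other genes that build, move or anchor the receptor were read from the same fit, each by its tested probe set of highest mean. Of 54 genes 52 were tested, 18 were higher, 4 were lower and 30 did not pass. Over all 11963 genes 32.8% were higher and 11.5% lower, and the median change was 0.12 for the 52 genes beside 0.08 for all. Quantile normalization gave 11 higher and 13 lower, and tested-median scaling gave 9 higher and 14 lower. Setting arrays to a common median of all probe sets gave 22 higher and 4 lower. The balance over all 22518 tested probe sets moved as well. It was 4566 higher and 4250 lower after quantile normalization, 4229 and 4969 under tested-median scaling, and 6830 and 2341 with the common median.

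Of the other auxiliary subunits 4 of 10 were higher and 1 lower (median 0.26). Gsg1l, an auxiliary subunit of the claudin family, read 836 ± 56.3 at 30 months and 560 ± 16.5 at 5 months, a change of 0.58 (SE 0.06, limma adjusted p = 2.6e-05). Shisa7, of the CKAMP family, read 723 ± 21.9 at 30 months and 477 ± 69.3 at 5 months and rose by 0.61 (limma adjusted p = 2.27e-04). Prrt1, also called SynDIG4, rose by 0.33 (adjusted p = 8.46e-04), with 1 of its 2 tested probe sets called. These 3 were also called under the 3 other scalings. The fourth gene that rose, Cnih3, had a change of 0.33, and the gene that fell was Cacng7 (both named after their values were seen), at −0.53 (adjusted p = 0.0236), and its other tested probe set was called in the opposite direction.

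Of 11 binding partners and scaffolds, 6 were higher and 1 lower (median 0.17). The lower one was Grip2, named after its values were seen, at −0.36. Gripap1, an endosomal partner of the adaptor GRIP, rose by 0.38 (limma adjusted p = 0.00213). The scaffold genes Dlg2 and Dlg1 rose by 0.19 and 0.15, and neither was called under tested-median scaling, where 1 gene of this list was higher and 2 were lower. For Dlg2 1 of 3 tested probe sets was called, and for Dlg1 1 of 2. Of 6 extracellular organisers 2 were higher and 4 not called (median 0.17). The pentraxin gene Nptx2, whose product clusters AMPA receptors from outside, read 1010 ± 53.0 at 30 months and 767 ± 52.2 at 5 months, a change of 0.40 (limma adjusted p = 2.94e-04). The olfactomedin gene Olfm3 rose by 0.20 (adjusted p = 0.0316), a call lost after quantile normalization, under tested-median scaling and without 30-month mice 2 and 4, as was that of Abhd12 without these mice. Nptx2 and Olfm3 each had 1 of 2 tested probe sets called.

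Of 5 genes for endocytosis and ubiquitin turnover 1 was higher and 1 lower. Usp46, a deubiquitinase of AMPA receptors, read 1570 ± 94.8 at 30 months and 1140 ± 35.5 at 5 months and rose by 0.47 (limma adjusted p = 4.73e-05), with both of its tested probe sets called. Arc, an activity-induced gene that promotes receptor endocytosis, read 3010 ± 455 at 30 months and 3920 ± 248 at 5 months and fell by 0.39 on the log2 scale (adjusted p = 0.00417). Of 5 kinase genes 1 was higher and 1 lower. Camk2b, a subunit gene of a calcium-dependent kinase, had a change of −0.21 (limma adjusted p = 0.0114) while its other tested probe set was called higher. Of 6 assembly and export factors 2 were higher and 4 not called. Abhd12 rose by 0.26 (adjusted p = 0.0277) and the phosphatase gene Sacm1l by 0.14 (0.0384), and neither was called under tested-median scaling. Abhd12 had 1 of 2 tested probe sets called. Among 6 kainate and delta receptor genes 2 were higher and 4 not called, Grik4 at 0.44 (limma adjusted p = 5.29e-04) and Grik2 at 0.25 (adjusted p = 0.0238, a call lost after quantile normalization and under tested-median scaling). Grik2 had 1 of 2 tested probe sets called. The 3 RNA editing genes, which include the Gria2-editing enzyme Adarb1, were not called by limma, with 2 of 3 at an unadjusted p under 0.05. Adarb1 had a change of −0.17 (adjusted p = 0.0697), and all 3 were called lower after quantile normalization and under tested-median scaling, but none when arrays were set to a common median of all probe sets.

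**Figure D5:**
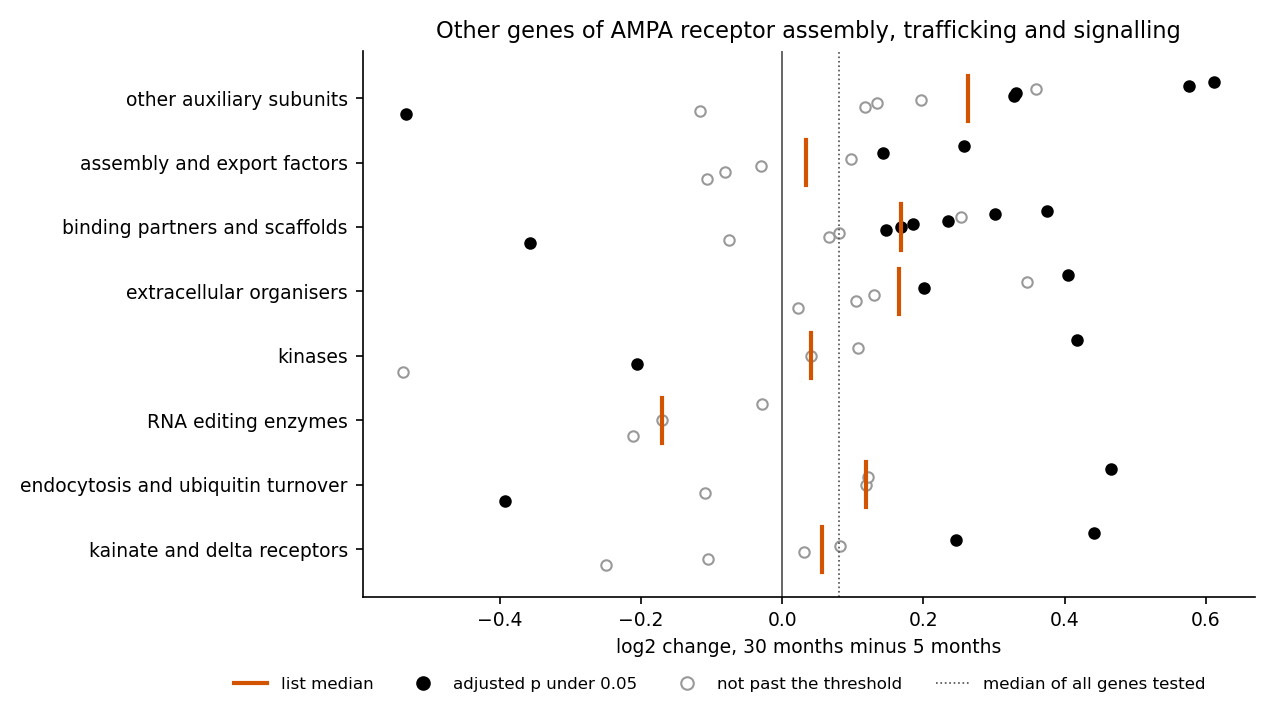
Log2 change at 30 months minus 5 months of 52 other genes linked to AMPA receptors, by list; filled points passed an adjusted p of 0.05, orange bars are list medians and the dotted line is the median of all genes tested. Filled points lie mostly to the right of 0 on the deposited scaling, led by Shisa7 and Gsg1l.

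By the root mean square difference of centred log2 signals over the 10 arrays, the genes nearest to Gria2 were Dus3l and Zranb2, both at 0.03, and Sulf2 was near Gria4 at 0.05. Nearest to Gria1 were Nfs1 at 0.04 and Med4 at 0.05, and to Gria3 Dagla at 0.04 and Ppat at 0.06. The comparison covered 11572 genes, and the deviation of the 4 subunits from their own means was 0.10 (Gria1), 0.11 (Gria2), 0.10 (Gria3) and 0.17 (Gria4). Dus3l averaged 1660 at 30 months and 1970 at 5 months, and Sulf2 averaged 1080 at 30 months and 831 at 5 months.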

How the data were processed

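Neocortex RNA of 10 mice was measured on 1 array each. The deposited intensities are linear probe set signals, identical in both deposited tables. The submitters' processing notes name GCOS. How background, probe summary and scaling were handled is not given in the sources used. The authors' deposited table also holds signed fold scores and p-values, with criteria of a fold lower bound of 1.2 and a p-value of 0.1, per the file headers. Control probe sets were omitted, per the file headers.

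Signals under 1 (55 values) were set to 1 and log2 taken. Of 45037 probe sets 36299 had 1 gene, 1261 several and 7477 none, named through GRCm38.p6 gene identifiers or accessions. An age term was fitted by limma 3.58.1 under R 4.3.3, using a variance trend, and two-sided p-values were adjusted by Benjamini-Hochberg over all tested probe sets. Single values were compared by exact permutation (scipy 1.17.1). The fit was tested on simulated data. Intervals are 95% intervals of the fit. The number of arrays limits precision. Nothing states that the mouse numbers pair the ages. The members and lists were chosen with earlier results of these data known. The naming rule took every member probe set, up to 3 called genes of each list, and the 2 genes nearest in pattern to each pore subunit, and genes outside it are said to be so. Some genes that the rule takes are not reported here. Alternatives covered scaling, offsets, filters, probe set summary, variance model, thresholds, mouse number and leaving out arrays. Probe sequences and their place in each transcript were not analysed here.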

Additional observations from a re-analysis of the deposited data

Results flagged for a closer look

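Of 45 groups of 5 mice checked, 2 had a mouse set apart from the rest of its age, where chance sets apart about 1 in 20. In Gria3 probe set 1420563_at, 5-month mouse 1 read 704, against 888 to 959 in the other young mice. In Cacng2 probe set 1453363_at, 30-month mouse 3 read 4.83, against 1 in all other old mice, which is the floor set before log2 was taken.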

How the results depend on the processing

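The count of all called probe sets, 9225 of 22518, was 5629 of 11259 under a stricter filter and 5764 of 22518 at an adjusted p under 0.01. It was 7876 to 9263 leaving out 1 mouse. Counted by gene, 5534 of 11963 were called with 1 probe set per gene and 4973 of 11963 with probe sets averaged. The count of AMPA receptor probe sets, 5 of 17, was 3 at an adjusted p under 0.01 and with a fold of at least 1.2. It was 8 under tested-median scaling, an alternative chosen after seeing the data, as was leaving out 30-month mice 2 and 4. Of the 8 AMPA receptor genes, 3 were called with 1 probe set per gene and 2 with averaging. Leaving out 1 mouse gave 4 to 6 calls of AMPA receptor probe sets and 5 calls of differences between probe sets. The Gria2 minus Gria1 difference was then −0.354 to −0.266. Higher calls over all probe sets numbered 6561 of 9225, against 4566 of 8816 after quantile normalization, 4229 of 9198 under tested-median scaling and 6830 of 9171 with a common median of all probe sets, and the median change of all probe sets was 0.07 as deposited, −0.001, −0.03 and 0.09 under these.

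Some signs turned. Gria1 1448972_at was −0.019 after quantile normalization and −0.01 under tested-median scaling, and Gria3 1420563_at was −0.018 after quantile normalization. Gria3 1434728_at was −0.035 after quantile normalization, −0.071 under tested-median scaling, −0.005 with array weights, −0.024 without 30-month mice 2 and 4, and −0.031 to 0.049 leaving out 1 mouse. Cacng2 1440210_at was −0.081, −0.055 and −0.025 under quantile normalization, tested-median scaling and without those mice, −0.169 with averaging, and −0.054 to 0.106 leaving out 1 mouse. With averaging the Gria4 value was −0.041, against 0.30 for its probe set of highest mean, and it was not called. The cause was not tested.

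Nothing in the labels pairs the mouse numbers, and correlations of same-numbered mice 2 to 5 were −0.421, 0.03, 0.077 and 0.118, with no mouse correlating best with its own number. With the replicate block over these 8 mice, 6819 probe sets were called, against 7971 without the replicate block, and 5 AMPA receptor probe sets either way; Gria3 1434728_at was −0.035 in both. Called differences between probe sets over all genes were 2077 with the block and 2599 without it in these 8 mice, against 3124 in all 10. That of Gria4 1460097_at was −0.43 in both 8-mouse fits, not called with the block (limma adjusted p = 0.0587) and called without it (0.0211). The fits of 8 mice without the block were added after seeing the data. Signal over background was not analysed, and the 5 AMPA receptor probe sets under the filter have no values in the filtered fit.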
